A study of Homo sapiens with 8 samples.

Results

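Within one set of 4 arrays of THP-1 cells, made for a test of the kinase inhibitor FRAX-597, one DMSO array and one FRAX-597 array differed from the other DMSO array and the other FRAX-597 array in the same genes and in the same direction. The difference was taken as the mean of DMSO 3 and FRAX-597 1, called the first pair here, minus the mean of DMSO 4 and FRAX-597 2, called the second pair. The genes were chosen by these same deposited values. The labels name no factor that ties these arrays together, and the pairing was recognised in the values themselves. Every value of the pair difference is therefore a description, and no test of it is given. A gene was counted as differing alike when DMSO 3 minus DMSO 4 and FRAX-597 1 minus FRAX-597 2 had the same sign and were both at least 2-fold, which is 1 on the log2 scale of the deposited values. Of 14884 named genes, 155 differed alike (1.04%). The first pair was higher in 117 of them (0.786% of all genes) and the second pair in 38 (0.255%).

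THP-1 is an established human acute monocytic leukaemia line that carries a fusion of the MLL and AF9 genes. The cells had been grown in RPMI-1640 with 10% foetal calf serum and treated for 5 h, and their total RNA was labelled for 1-colour Affymetrix whole-transcript arrays. The 8 arrays of the study comprised 4 of the solvent DMSO, 2 of the PAK inhibitor IPA-3 at 6 µg/mL and 2 of the PAK inhibitor FRAX-597 at 2 µg/mL. PAKs are kinases activated by the GTPases CDC42 and RAC; IPA-3 blocks their activation allosterically, and FRAX-597 competes with ATP. The labels do not say whether arrays of a group came from separate cultures, so the spread between them may be technical. Where a title gives no replicate number, arrays were numbered in accession order, so an array's number says nothing about which arrays were handled together.

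The arrays fell into sets by their overall level. DMSO 1 and 2 with both IPA-3 arrays, called the first array set, had probe medians of 5.51 to 5.55 (53617 probes), and the other 4 arrays, called the second set, medians of 6.0 to 6.05. Levels are therefore compared within a set unless stated. Over all probes DMSO 3 correlated more closely with FRAX-597 1 (Pearson r = 0.987) than with DMSO 4 (r = 0.982), and DMSO 4 more closely with FRAX-597 2 (r = 0.990). FRAX-597 1 and FRAX-597 2 gave r = 0.979. These correlations are across probes of single arrays and are given as descriptions.

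The gene list with the most members among the 155 was that of the interferon response, with 21. Cells that sense foreign nucleic acid or bacterial products secrete interferons, whose receptors on the same and on neighbouring cells switch on a large, shared set of genes through STAT and IRF transcription factors. These factors bind short promoter elements such as the interferon-stimulated response element. The induced genes include sensors of viral RNA, proteins that block viral translation, the ubiquitin-like modifier ISG15 with its enzymes, and chemokines such as CXCL10 that draw T cells. Monocytes and macrophages are strong responders, and they also carry the NF-kB programme that induces TNF, CCL2 and ICAM1.

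The promoters of the 4 interferon-induced genes with the largest differences are shown because they carry the letters of that element. Each line gives 250 bases before to 50 bases after the start site from RefSeq (GRCh38.p14), 5′ to 3′ on the gene's own strand, with the matches to the core of that element in capitals. The core was searched on both strands as the letters GAAA, any 2 bases, and GAAA. CXCL10 lies at chr4:76023448-76023747 on the minus strand, and the others on the plus strand, IFIT1 at chr10:89392373-89392672, IFI44 at chr1:78649539-78649838 and IFI44L at chr1:78620198-78620497.
CXCL10: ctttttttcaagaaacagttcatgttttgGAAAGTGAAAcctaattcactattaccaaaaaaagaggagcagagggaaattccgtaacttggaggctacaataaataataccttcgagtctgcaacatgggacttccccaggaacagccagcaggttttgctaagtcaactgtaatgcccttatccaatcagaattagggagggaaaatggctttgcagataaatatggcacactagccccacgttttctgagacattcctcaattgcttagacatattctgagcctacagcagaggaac
IFIT1: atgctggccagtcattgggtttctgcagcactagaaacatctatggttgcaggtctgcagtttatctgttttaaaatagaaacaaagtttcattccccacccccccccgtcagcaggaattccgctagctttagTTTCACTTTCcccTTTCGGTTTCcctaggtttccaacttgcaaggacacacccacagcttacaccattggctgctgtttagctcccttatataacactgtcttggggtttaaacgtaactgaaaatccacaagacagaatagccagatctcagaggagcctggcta
IFI44: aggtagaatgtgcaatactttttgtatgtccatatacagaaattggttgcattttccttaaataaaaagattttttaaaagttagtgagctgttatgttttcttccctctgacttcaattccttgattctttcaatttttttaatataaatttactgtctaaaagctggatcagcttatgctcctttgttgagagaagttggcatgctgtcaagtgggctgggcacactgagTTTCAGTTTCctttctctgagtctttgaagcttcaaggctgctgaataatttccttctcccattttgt
IFI44L: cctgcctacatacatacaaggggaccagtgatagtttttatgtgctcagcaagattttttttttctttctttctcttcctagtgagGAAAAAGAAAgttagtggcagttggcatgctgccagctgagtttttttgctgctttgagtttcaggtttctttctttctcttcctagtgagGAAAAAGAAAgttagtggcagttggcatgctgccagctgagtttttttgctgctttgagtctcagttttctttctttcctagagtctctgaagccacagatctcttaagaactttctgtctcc

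The match began 221 bases before the start site in CXCL10 and 18 bases before it in IFI44. IFIT1 had a match at 116 and another at 103 bases before its start site, and IFI44L held the same letters at 164 and at 73 bases. Of the genes higher in the first pair, 84 had a promoter window in the reference, and 20 of these (23.8%) contained the motif. It was found in 316 of 10749 measured genes with a window (2.94%) and in 996 of all 27305 genes with a window (3.65%). Where a gene had several windows, as IFI44 with 2, only the first was searched. Among the members of the interferon list it was in 13 of 17, and among the other genes higher in the first pair in 7 of 67 (10.4%), namely DDX60, GPR18, LAP3, MNDA, PATL2, SGK1 and TLR3. Being off the list does not make a gene unrelated to interferon. DDX60 and TLR3, for example, act in the sensing of viral RNA. Of the genes higher in the second pair, GPC6 and SYNPO2 held it, 2 of 25. The letters of an NF-kB site, searched on both strands as GGG, any 2 bases, and TTTCC, were in 5 of the 84 windows (5.95%), against 2.01% of measured genes. Of these 5, GBP4, IFIH1 and RIGI were on the interferon list (3 of 17). PATL2 and UST were outside it (2 of 67, 2.99%). GBP4, IFIH1 and PATL2 held both motifs. A match of letters is no measurement of binding.

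The first array set gave no such pairing. Over all genes, DMSO 3 minus DMSO 4 and FRAX-597 1 minus FRAX-597 2 correlated with r = 0.65 across genes, and 9977 genes (67%) had the same sign in both. Of these, 4970 were positive and 5007 negative. In the first set, DMSO 1 minus DMSO 2 and IPA-3 1 minus IPA-3 2 gave r = -0.06. DMSO 3 and DMSO 4 differed at least 2-fold in 252 genes (1.69%) and the FRAX-597 arrays in 426 (2.86%), while DMSO 1 and DMSO 2 did so in 7 and the IPA-3 arrays in 15. No gene passed 2-fold in both comparisons of the first set with one sign. None of the genes that differed alike passed 2-fold in either comparison of the first set, which the rule did not use. The median size of DMSO 1 minus DMSO 2 was 0.10 for genes higher in the first pair and 0.13 for those higher in the second, against 0.10 over all genes. For IPA-3 1 minus IPA-3 2 it was 0.12 and 0.16, against 0.13 over all genes. Genes higher in the second pair thus varied somewhat more than all genes in both comparisons.

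**Figure D1:**
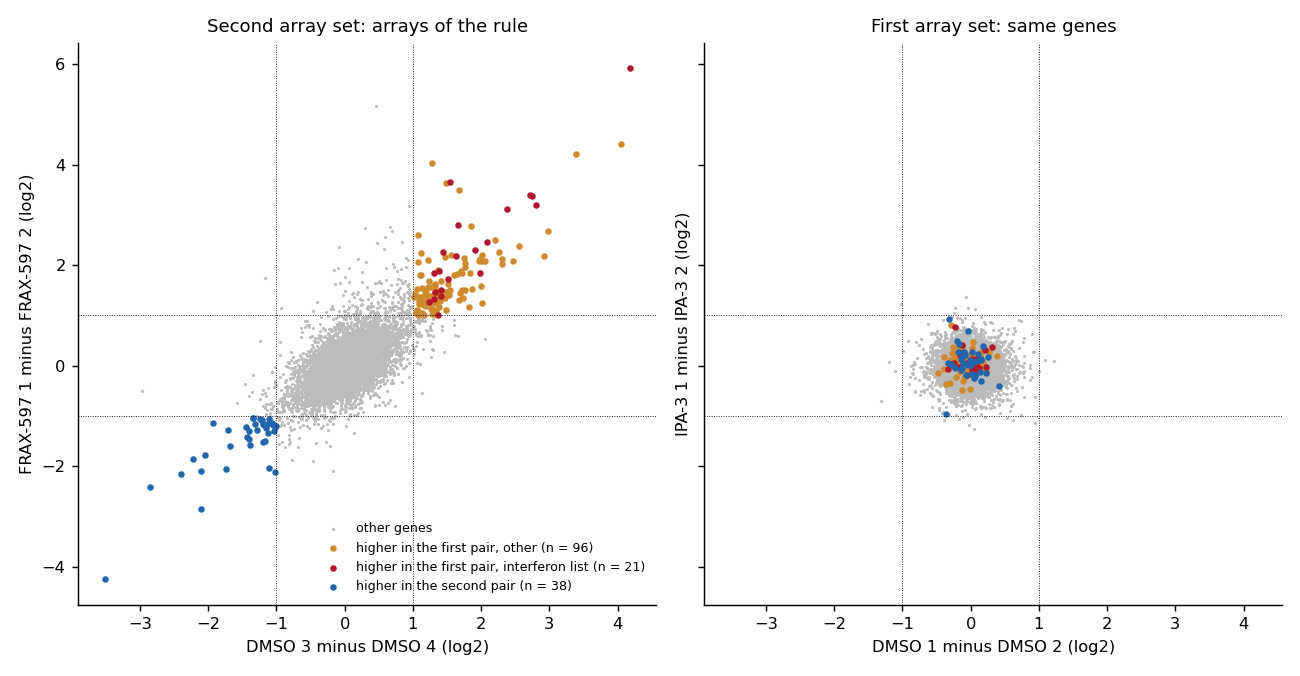
Each point is a gene. The left panel plots DMSO 3 minus DMSO 4 (log2, x axis) against FRAX-597 1 minus FRAX-597 2 (log2, y axis), with dotted lines at 2-fold. The right panel plots the same genes in the first array set as DMSO 1 minus DMSO 2 and IPA-3 1 minus IPA-3 2. The 117 genes in the upper right and the 38 in the lower left of the left panel are coloured, and all of them lie between the dotted lines in the right panel.

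CXCL10 had the largest difference. This chemokine, a ligand of the chemokine receptor CXCR3 of T cells, was at 10.77 in DMSO 3 and 10.93 in FRAX-597 1, and at 6.59 in DMSO 4 and 5.01 in FRAX-597 2. The arrays of the first pair were thus 18.2-fold higher under DMSO and 60.5-fold higher under FRAX-597. In the first set CXCL10 lay between 4.38 and 5.84 in all 4 arrays. CXCL11, its close relative, was at 7.97 and 9.76 in DMSO 3 and FRAX-597 1 and at 6.43 and 6.10 in DMSO 4 and FRAX-597 2. CXCL9, the third chemokine of that receptor and a gene most dependent on interferon gamma, was low in all 4 arrays, between 4.28 and 4.82.

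The IFIT family, whose proteins bind viral RNA and hold back its translation, followed. IFIT1 was at 9.39 in DMSO 3 and 8.98 in FRAX-597 1 against 6.58 in DMSO 4 and 5.78 in FRAX-597 2, a difference of 7.0-fold under DMSO and 9.19-fold under FRAX-597. IFIT3 was at 9.68 and 9.65 in the first pair and 7.29 and 6.53 in the second. IFIT2 and IFIT5 differed in the same direction by at least 1.67 and 1.39 (log2) in both comparisons. IFI44, an interferon-induced gene of poorly understood function, was at 10.77 and 10.90 against 8.03 and 7.53. Its neighbour IFI44L was at 11.77 and 11.68 against 9.06 and 8.28. In none of these genes did the pairs overlap. The rule asks for a gap of at least 2-fold in both comparisons, so this is largely set in advance. Overlap over all genes was not counted, and nothing is read from it. Among the 155 genes the pairs overlapped in DUSP4 and ULBP1, where FRAX-597 2 lay above DMSO 3.

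Among the modifier ISG15 and enzymes that act on it, picked after their values were seen, 4 genes differed alike and 1 did not. ISG15, the modifier itself, was at 9.14 in DMSO 3 and 8.85 in FRAX-597 1 and at 7.72 and 7.34 in DMSO 4 and FRAX-597 2. HERC5, the ligase that attaches it, was at 9.0 and 9.06 against 6.91 and 6.59. UBE2L6, its conjugating enzyme, was at 7.90 and 7.77 against 6.38 and 6.35. USP18, the protease that removes it and dampens interferon receptor signalling, was at 11.60 and 11.47 against 9.62 in both arrays of the second pair. UBA7, the activating enzyme of the same pathway, differed little and lay between 9.63 and 9.95.

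Sensors of viral RNA were also higher in the first pair. IFIH1, which encodes MDA5, was at 9.83 and 10.20 in DMSO 3 and FRAX-597 1 and at 8.38 and 7.94 in DMSO 4 and FRAX-597 2. RIGI was at 10.20 and 10.18 against 8.87 and 8.72. DDX60, a helicase linked to RIGI signalling, differed by 1.23 and 1.57, TLR3 by 1.07 and 1.03, and TLR7 by 1.10 and 1.81. Among antiviral effectors, RSAD2 was at 8.73 and 9.15 against 7.22 and 7.42, and MX2 at 9.03 and 9.51 against 7.66 and 8.51. SAMD9, SAMD9L, IFITM1, TRIM22 and GBP4 also differed alike.

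Of the 31 measured genes of the interferon list, 21 differed alike, all higher in the first pair, and 30 were higher in both comparisons. The same counts over all 14884 genes were 117 and 4970. The median pair difference of the list was 1.46 on the log2 scale, with 1.39 under DMSO and 1.51 under FRAX-597, against a median near 0 over all genes. GBP5 was the gene outside that pattern, at 5.92 in DMSO 3 and 6.71 in DMSO 4. The transcription factors of the list did not reach 2-fold in both comparisons. IRF7 differed by 0.64 and 1.5, IRF9 by 0.46 and 0.81, and IRF1 by 0.11 and 1.43. The list was drawn up with earlier results of these data known, so its count is no independent evidence.

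The first set was used to describe which pair stood apart. All 21 interferon genes were higher in DMSO 3 and FRAX-597 1 than in each of the other 6 arrays, and in none was the second pair below all others on the deposited scale. The rule had already placed the second pair lower, and the first set has the lower overall level. This result was therefore largely set in advance, and the same counts were not made over all genes. With each array centred on its own median, which removes the offset between sets, the first pair alone stood outside the other 6 arrays in 18 of the 21, and both pairs did so on opposite sides in 3. ISG15, for example, was at 7.41 and 7.56 in DMSO 1 and DMSO 2 and at 7.34 and 7.12 in the IPA-3 arrays, close to the second pair. In RNA from whole cultures, fewer responding cells and less RNA per cell cannot be told apart.

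**Figure D2:**
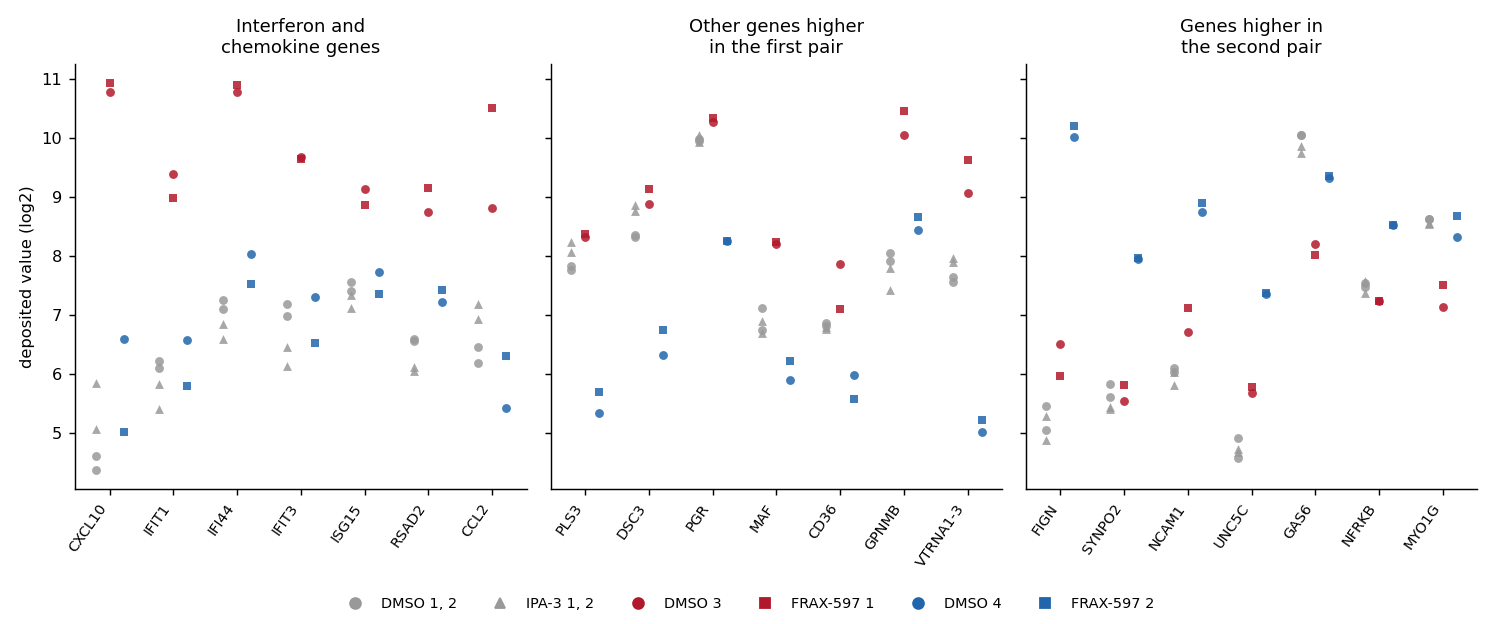
Deposited log2 values (y axis) of 21 genes (x axis) in each array: first set in grey, DMSO 3 and FRAX-597 1 in red, DMSO 4 and FRAX-597 2 in blue, with circles for DMSO, triangles for IPA-3 and squares for FRAX-597. For CXCL10 the red points sit at 10.77 and 10.93 above all others, whereas for PGR the blue points, near 8.25, sit below all others. Grey points are on an offset scale.

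Inflammatory genes were a smaller and less even group. CCL2, the chemokine that recruits monocytes, was at 8.82 in DMSO 3 and 10.50 in FRAX-597 1 and at 5.42 in DMSO 4 and 6.29 in FRAX-597 2. TNF was at 9.77 and 9.82 in the first pair and at 7.79 and 7.73 in the second. In the first set TNF lay between 8.81 and 9.95, so the second pair lay below it, although the second set has the higher overall level. ICAM1, an adhesion receptor for leukocytes, was at 7.47 and 10.64 against 6.19 and 6.60. CCL2, TNF and ICAM1 were the 3 of 26 measured genes of the NF-kB list that differed alike.

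The NF-kB list had a median difference of 0.30 between the DMSO arrays and of 1.14 between the FRAX-597 arrays. Of its 26 measured genes, 19 were higher in the first pair in both comparisons and 0 were lower in both, so the direction was shared by most genes while the sizes differed. Among all 14884 genes, 4970 were higher in both and 5007 lower in both. CXCL8 was at 6.66 in DMSO 3 and 6.20 in DMSO 4, but at 10.06 in FRAX-597 1 and 4.89 in FRAX-597 2. CD83 was at 8.01 and 8.09 in the DMSO arrays and at 10.38 and 8.01 in FRAX-597 1 and FRAX-597 2. IRAK2 was at 6.90 and 6.59 in the DMSO arrays and at 9.81 and 7.06 in the FRAX-597 arrays. Taken within pairs, FRAX-597 1 minus DMSO 3 had a median of 1.29 over the list and FRAX-597 2 minus DMSO 4 a median of 0.05. The interferon list gave 0.26 and -0.14 in the same comparison. Each of these values sets 1 array against 1 array, and the difference between pairs was not tested.

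**Figure D3:**
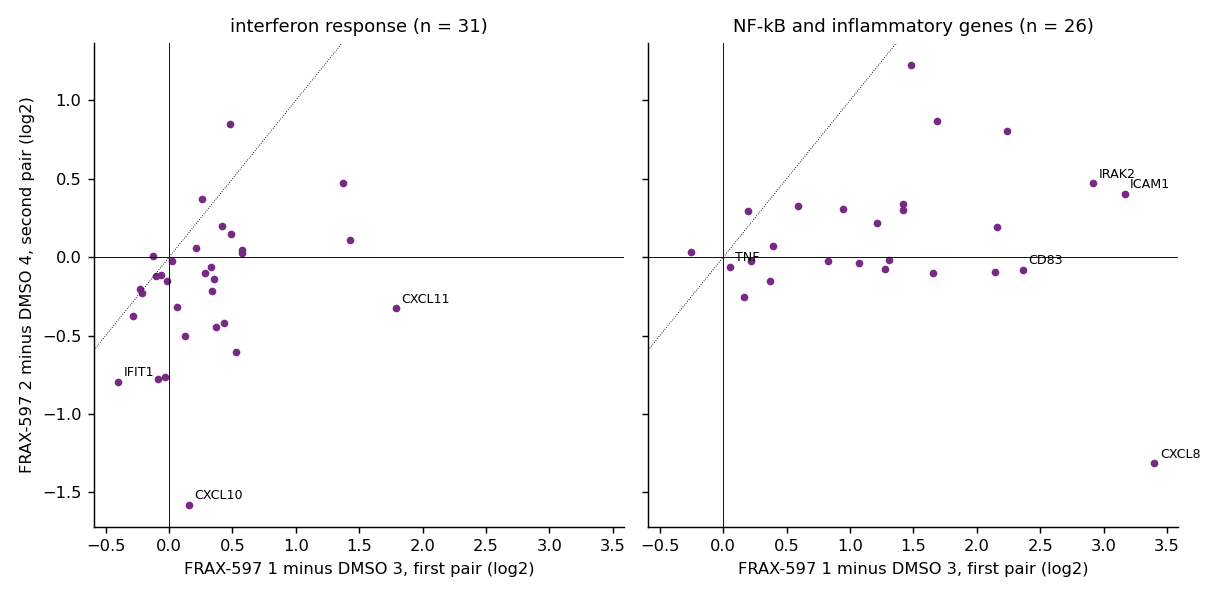
Each point is a gene of the interferon list (left, n = 31) or the NF-kB list (right, n = 26), with FRAX-597 1 minus DMSO 3 on the x axis and FRAX-597 2 minus DMSO 4 on the y axis (log2). The dotted line marks equal changes. NF-kB genes such as ICAM1 and CXCL8 lie far to the right of it, with list medians of 1.29 and 0.05, while the interferon list has medians of 0.26 and -0.14.

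Monocyte and macrophage genes were mostly higher in the first pair. Of 33 measured, 6 differed alike and 26 were higher in both comparisons, with a median pair difference of 0.61. Among all 14884 genes, 155 differed alike and 4970 were higher in both. GPNMB, a glycoprotein of lipid-laden macrophages, was at 10.04 and 10.45 in DMSO 3 and FRAX-597 1 and at 8.44 and 8.65 in DMSO 4 and FRAX-597 2. CD36, a scavenger receptor for oxidised lipid, was at 7.85 and 7.10 against 5.98 and 5.57. MNDA, a nuclear protein of myeloid cells, was at 10.41 and 9.74 against 9.01 and 8.05. TREM1, an amplifying receptor of inflammation, was at 8.06 and 9.18 against 6.58 and 7.83. CD4 was the exception with the largest size, at 7.88 and 7.91 in the first pair and 8.83 and 8.95 in the second.

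SPI1, LYZ and CSF1R lay above the probe median in both pairs. They were picked from the 8 measured markers of the monocytic line after their values were seen, and how many of the 8 lay above it was not counted. SPI1, the master factor of myeloid cells, lay between 9.08 and 9.33 in all 4 arrays, against a probe median of 6.03. LYZ was at 10.79 and 10.69 in the first pair and 9.71 and 9.80 in the second, and CSF1R at 10.13 and 10.02 against 9.09 and 9.63. The lowest value among the 8 markers was under the probe median, at 4.91 in DMSO 3, 4.79 in FRAX-597 1, 4.77 in DMSO 4 and 4.86 in FRAX-597 2. Of the 8, 5 were higher in the first pair in both comparisons and 2 were lower in both. Their pair differences ran from -0.99 in CD4, which was lower in both, to 1.55 in MNDA, which differed alike. Of the fixed marker lists, no measured gene of T, B, NK or dendritic cells, granulocytes, erythroid cells, megakaryocytes, epithelium, fibroblasts or endothelium differed alike. At the share over all genes (1.04%) such lists could hold few or none, so nothing is read from this absence. These lists were short, with 4 measured genes for NK cells, and did not hold NCAM1, which encodes the NK marker CD56 and was higher in the second pair. No value shows whether the state of the cultures, the cells themselves or the handling of the RNA moved with the pairs, so the difference is named here by its arrays.

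Other receptors and sensors of myeloid cells were less even. Of 19 measured chemokine and cytokine receptors, 1 differed alike, 10 were higher in the first pair in both comparisons and 4 lower in both. Of 22 innate sensing genes, 3 differed alike, 15 were higher in both and 4 lower in both. Among all 14884 genes, 155 differed alike (1.04%), 4970 were higher in both and 5007 lower in both. C3AR1, the receptor of complement C3a, was at 7.32 and 8.98 against 5.46 and 6.19. CCR1, a chemokine receptor, was at 9.87 and 9.18 against 8.15 and 7.68. LY96, which encodes the MD-2 partner of TLR4 in sensing lipopolysaccharide, was at 5.76 and 7.12 against 4.39 and 5.21. NOD2, a sensor of bacterial cell wall fragments, was at 8.28 and 8.38 against 6.80 and 6.92. AXL, a receptor tyrosine kinase for the ligand GAS6, was at 11.02 in both arrays of the first pair and 9.77 and 9.63 in the second.

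GAS6 itself differed the other way. It was at 8.2 and 8.02 in DMSO 3 and FRAX-597 1 and at 9.32 and 9.36 in DMSO 4 and FRAX-597 2. Its divergent transcript GAS6-DT was at 6.08 and 5.30 against 8.19 and 8.16. In the first set GAS6 lay between 9.74 and 10.05 and AXL between 8.48 and 8.64. For this ligand and receptor the second pair was therefore nearer to the first set, and the first pair had less ligand RNA and more receptor RNA.

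In other genes that were higher in the first pair, it was the second pair that stood apart from the rest. PLS3, an actin-bundling protein, was at 8.32 and 8.37 in DMSO 3 and FRAX-597 1, between 7.76 and 8.24 in the first set, and at 5.34 and 5.69 in DMSO 4 and FRAX-597 2. DSC3, a desmosomal cadherin, was at 8.88 and 9.13 in the first pair and at 6.33 and 6.75 in the second, with 8.31 to 8.86 in the first set. PGR, the progesterone receptor, was at 10.26 and 10.34 against 8.24 and 8.25, with 9.93 to 10.05 in the first set. CDC42BPA, a kinase that binds the GTPase CDC42, was at 7.57 and 7.74 against 5.51 and 5.67. In these 4 genes the second pair lay below all of the other 6 arrays.

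After centring each array, the first pair alone lay outside the other 6 arrays in 29 of the 96 genes that were higher in the first pair and not on the interferon list. The second pair alone did so in 35, both did so on opposite sides in 30, and neither did in 2. The 96 still include genes tied to the interferon response, such as UBE2L6 and DDX60. These genes were chosen for a gap between the pairs, so that some pair lay outside was nearly given. Only the split between the pairs depends on the first set, and the share over all genes was not computed. The transcription factors MAF (8.2 and 8.23 against 5.89 and 6.21) and NFE2L3 (7.97 and 8.75 against 5.77 and 6.24) belonged to the genes in which both pairs stood outside. So did CAPN6, a calpain without protease activity, at 8.24 and 8.22 against 5.93 and 6.10, and CRYBG1 at 8.64 and 8.51 against 6.16 and 6.43. ERBB4, a receptor of neuregulins, stood out in the first pair, at 8.36 and 8.87 against 6.39 and 6.74, with 5.77 to 6.09 in the first set.

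Small non-coding RNAs took part. VTRNA1-3, one of the vault RNAs that associate with the vault ribonucleoprotein particle, was at 9.06 and 9.63 in DMSO 3 and FRAX-597 1 and at 5.01 and 5.21 in DMSO 4 and FRAX-597 2. Its difference was 16.5-fold under DMSO and 21.3-fold under FRAX-597, second in size only to CXCL10 by the smaller of the differences. VTRNA2-1 was at 7.69 and 7.54 against 4.76 and 5.36, with 7.24 to 7.71 in the first set. Members of the SNAR family (SNAR-B1, SNAR-C1, SNAR-D and SNAR-H) differed by 1.09 to 1.48, but these copies are nearly identical in sequence and their probes may share signal. The same applies to ANXA8 and ANXA8L1.

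Of the 38 genes higher in the second pair, 1 was on any of the 42 gene lists, and of the 117 higher in the first pair 40 were. The lists held 600 of the 14884 measured genes and were drawn up with earlier results known. The 1 listed gene was EYA1, a co-activator among the MLL-fusion genes, at 6.26 and 5.94 in DMSO 3 and FRAX-597 1 and 7.41 and 7.12 in DMSO 4 and FRAX-597 2. FIGN, a microtubule-severing enzyme, had the largest difference of this direction. It was at 10.02 in DMSO 4 and 10.21 in FRAX-597 2, at 6.50 and 5.96 in DMSO 3 and FRAX-597 1, and between 4.88 and 5.45 in the first set. The second pair was 11.4-fold higher under DMSO and 19.0-fold higher under FRAX-597.

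SYNPO2, an actin-binding protein of muscle Z-discs, was at 7.94 and 7.96 in DMSO 4 and FRAX-597 2 against 5.54 and 5.81. CCL28, a mucosal chemokine, was at 7.89 and 7.61 against 5.79 and 5.52. NCAM1, the adhesion molecule CD56, was at 8.74 and 8.89 against 6.70 and 7.12, with 5.81 to 6.10 in the first set. UNC5C, a netrin receptor, was at 7.36 in both arrays of the second pair against 5.68 and 5.77. PRDM6, MPDZ, ALPK3, CNTNAP3, GPC6, NFRKB, RPP21, MYO1G and HSBP1L1 differed by 1.17 to 1.7. USP17L12 and USP17L9P carried identical values in all arrays, so they count as 1 signal, and USP17L15 belongs to the same near-identical family.

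Against the first set, the second pair alone stood outside the other 6 arrays in 21 of the 38 genes after centring, the first pair alone in 7, and both in 10. Here too the gap between the pairs was set by the rule, and no share over all genes was computed. GAS6, GAS6-DT, TPMT and MYO1G were among the 7. TPMT, which methylates thiopurine drugs, was at 8.55 and 8.42 in the first pair, at 9.71 and 9.60 in the second and between 8.93 and 9.37 in the first set.

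The genes higher in the second pair included 4 microRNA loci, of which MIR142 and MIR196B are expressed in blood cells and in MLL-rearranged leukaemia, respectively. Their mature sequences are shown with the seed, bases 2 to 8, in capitals (RefSeq, GRCh38.p14), because the seeds define possible targets. MIR142 lies on chromosome 17 and MIR196B on chromosome 7, both on the minus strand.
hsa-miR-142-5p: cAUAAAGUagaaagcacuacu
hsa-miR-142-3p: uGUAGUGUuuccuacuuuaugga
hsa-miR-196b-5p: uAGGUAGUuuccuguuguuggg
hsa-miR-196b-3p: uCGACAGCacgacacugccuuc

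None of these 4 seeds is shared with another. MIR142 was at 9.10 and 9.32 in DMSO 4 and FRAX-597 2 and at 8.08 and 7.20 in DMSO 3 and FRAX-597 1. MIR196B was at 9.35 and 10.11 in the second pair and 8.24 and 8.08 in the first. A whole-transcript array does not tell a mature microRNA from its precursor or host transcript, so these values are not levels of the sequences shown.

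The counts depend on where the threshold stands. Just inside it lay MYOF (1.08 and 1.0), NRIP3 (1.16 and 1.0) and MX2 (1.37 and 1.01) in the first direction, and STAG3L1 (-1.01 and -1.20), MIR142 (-1.02 and -2.12) and CPLANE1 (-1.03 and -1.29) in the other. Just outside lay ADAM23 (1.09 and 0.99), EXT1 (1.12 and 0.99) and CFAP251 (0.98 and 1.18), and DLX3 (-1.28 and -1.0), MIR3916 (-1.09 and -1.0) and CRYZL2P (-1.0 and -1.15), whose smaller size is below 1 before rounding. A fold of 1.5 gave 414 and 209 genes, and a fold of 3 gave 35 and 9. MIR505 was the 1 gene past 2-fold with opposite signs, at -1.17 under DMSO and 1.75 under FRAX-597.

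Most other functions differed little between the pairs, while the lysosome and ATF4 lists were mostly higher in the first pair. The 43 measured cytosolic ribosomal proteins had a median pair difference of -0.04, the 32 mitosis genes 0.00, the 17 genes of cholesterol synthesis 0.04 and the 15 of oxidative phosphorylation 0.10, with no gene of these lists differing alike. The 25 lysosome and autophagy genes had a median of 0.34 and ranged from -0.35 to 0.80, with 20 higher in the first pair in both comparisons and none past 2-fold. CTSL was at 8.40 and 8.59 against 7.78 and 7.61, and LAMP1 at 9.69 and 9.84 against 9.18 and 9.41. The 23 genes of the ATF4 pathway, which answers amino acid shortage, had a median of 0.53, with 0.44 under DMSO and 0.62 under FRAX-597. Of these, 18 were higher in the first pair in both comparisons and 2 lower in both, against 4970 and 5007 of all 14884 genes. Only 1 differed alike, ULBP1, a stress ligand for NK cells. MYC was at 8.51 in both DMSO arrays, and at 7.43 in FRAX-597 1 and 7.85 in FRAX-597 2. Of the PAK genes, PAK2 and PAK4 differed by at most 0.23, and PAK5 by 0.07 under DMSO and 0.64 under FRAX-597.

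**Figure D4:**
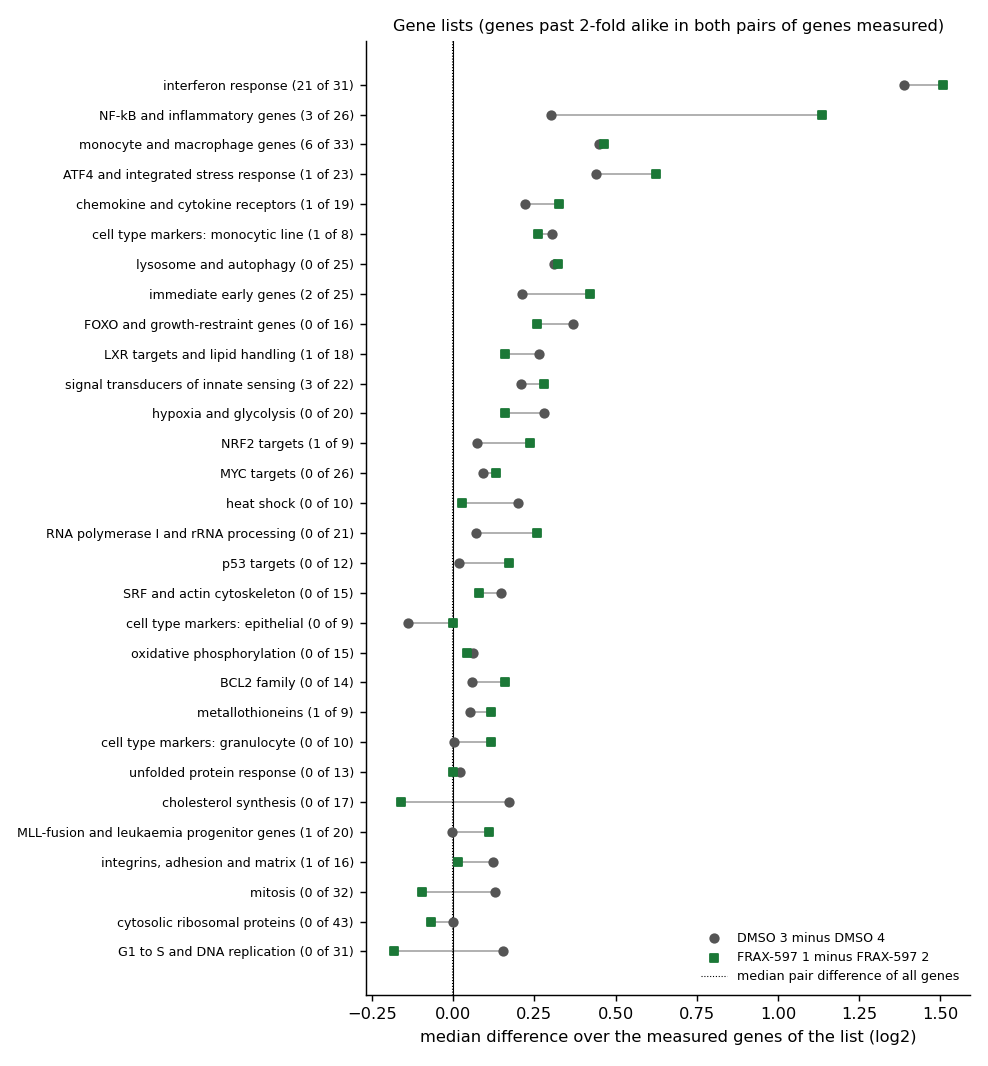
Median difference of each gene list with at least 8 measured genes (x axis, log2) between the DMSO arrays (circles) and between the FRAX-597 arrays (squares). The brackets give the genes that differed alike of those measured. The interferon list stands apart at 1.39 and 1.51, the NF-kB list has its markers far apart at 0.30 and 1.14, and lists such as cytosolic ribosomal proteins sit near 0.

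Part of the difference followed the order of genes along chromosomes, which the rule did not use but which was noticed in these values. Protein-coding genes with a mean at or above the probe median in the second set were placed in RefSeq order and grouped into 364 windows of about 25 neighbouring genes. In 10 windows the median of both comparisons was below -0.2, so that the second pair was higher, and in 8 both were above 0.2. The same medians in the first set never passed 0.2 in either comparison. Across windows, the DMSO and FRAX-597 medians correlated with r = 0.80, against 0.03 in the first set, as a description over windows of the same arrays. The 2 differences share no array.

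Most windows higher in the second pair lay in runs at chromosome ends. At the start of chromosome 5, 51 genes from LRRC14B to NIM1K had medians of -0.40 under DMSO and -0.37 under FRAX-597, with 40 of them negative in both. At the start of chromosome 6, 100 genes from DUSP22 to NCR3 had medians of -0.40 and -0.35, with 76 negative in both, and 25 genes from FKBPL to LEMD2 had -0.35 and -0.30. At the end of chromosome 11, 50 genes from DPAGT1 to THYN1 had medians of -0.51 and -0.61, which is 1.42-fold and 1.52-fold, with 39 negative in both. A last window on chromosome 1, from HEATR1 to PGBD2, had -0.23 and -0.27.

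Windows higher in the first pair included the end of chromosome 6, where 72 genes from PEX7 to PDCD2 had medians of 0.27 and 0.33, with 55 positive in both. The last window of chromosome 13, from ZIC2 to CHAMP1, had 0.36 and 0.33. Single windows lay on chromosome 2 (NBEAL1 to RUFY4, 0.22 and 0.35), chromosome 5 (HMMR to MSX2, 0.26 and 0.27), chromosome 6 (RPF2 to HDDC2, 0.24 and 0.23) and chromosome 12 (LRP1 to LEMD3, 0.28 and 0.31). After centring, the runs at the starts of chromosomes 5 and 6 and at the end of chromosome 11 were near the first set in the first pair (medians of 0.06, 0.03 and 0.11) and above it in the second (0.45, 0.39 and 0.51). The run at the end of chromosome 6 was at -0.04 in the first pair and -0.46 in the second. DNA copy number was not measured here.

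**Figure D5:**
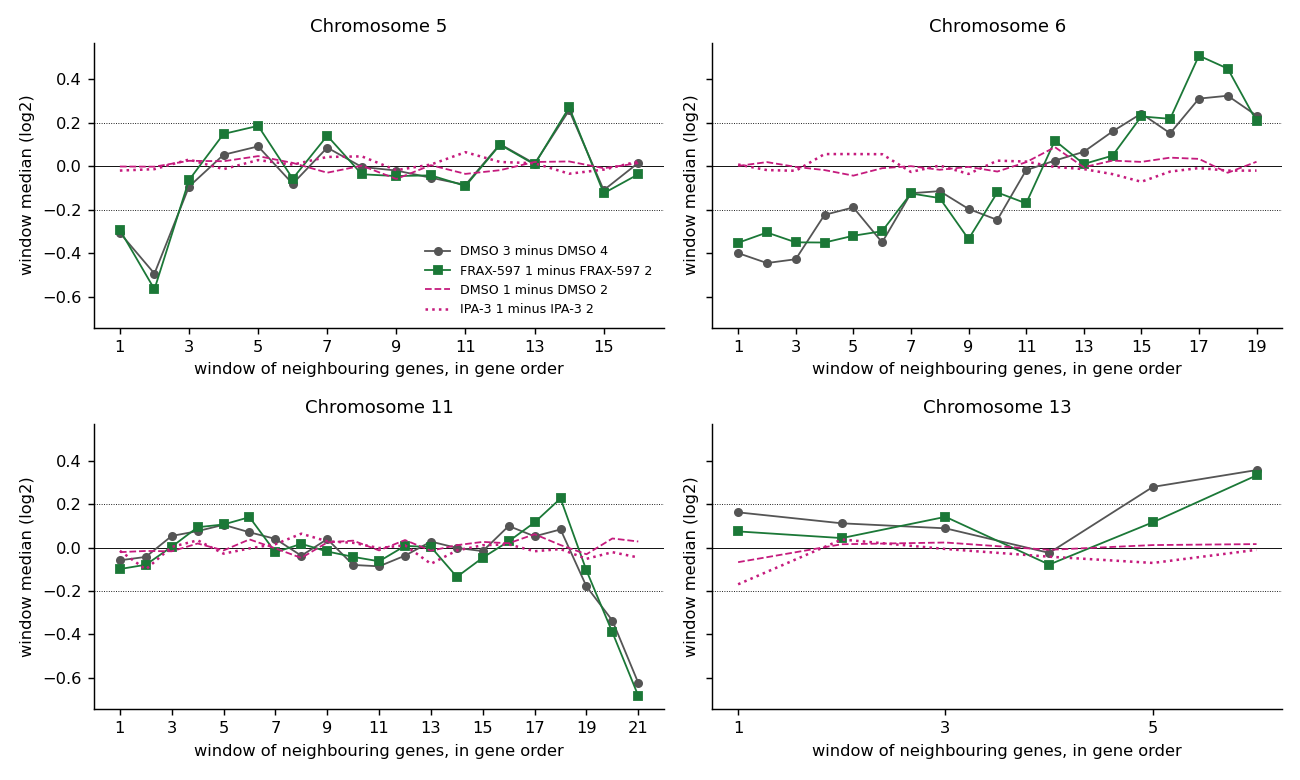
Window medians (y axis, log2) in gene order (x axis) along chromosomes 5, 6, 11 and 13, for DMSO 3 minus DMSO 4 (grey circles), FRAX-597 1 minus FRAX-597 2 (green squares), and both comparisons of the first set (pink lines). Dotted lines mark 0.2 on either side of 0. The circles and squares move together, down to -0.62 and -0.68 in the last window of chromosome 11, while the pink lines stay between the dotted lines.

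Of 29 genes higher in the second pair that were in a window, 7 lay in a run of that side (24.1%), against 2.75% of all genes in windows. These were CPLANE1 and TTC33 on chromosome 5, RPP21 and TPMT on chromosome 6, and CDON, NFRKB and ZBTB44 on chromosome 11. Of the genes higher in the first pair, 6 lay in a run of the first-pair side (5.94% of those in windows, against 2.15% of all genes in windows), namely ERBB4, NRP2, DUSP1, SASH1, ULBP1 and UST. The runs were drawn from the same differences that chose these genes. An excess over the share of all genes was therefore largely set in advance on both sides, and nothing is read from it. TNF on chromosome 6, PRLR on chromosome 5 and GAS6 on chromosome 13 lay in runs of the opposite side to their own difference. Without the genes that differed alike 9 windows remained on the second-pair side and 7 on the first-pair side. Leaving out the runs changed the correlation across genes from 0.73 to 0.72.

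The response to the inhibitors was fitted for all genes. The FRAX-597 contrast averages over the pairs, but its error in the fit of all arrays comes partly from the difference that chose the 155 genes. For FRAX-597 against DMSO 3 and DMSO 4, limma on all 8 arrays called 23 genes at a Benjamini-Hochberg adjusted p below 0.05 (0.155%). Of these, 18 were higher (0.121%) and 5 lower (0.0336%) after FRAX-597. None of the 155 genes was among them, and 2 of the 155 (1.29%) had an unadjusted p below 0.05, against 7.66% of all genes. These low counts among the 155 follow from the rule, and nothing is read from them. Without DMSO 3 this fit called 5 genes and without DMSO 4 it called 7. Without FRAX-597 2 it called 227 of 14884 genes and 4 of the 155, with the lone FRAX-597 array assumed to vary like the other groups. With the pair as a block, limma called 202 genes (1.36%) and 13 of the 155 (8.39%), of which 8 were higher and 5 lower after FRAX-597. Over all genes 0.961% were called higher and 0.396% lower, and 14.8% had an unadjusted p below 0.05 against 38.7% of the 155. The pairing behind this block came from the values that chose the 155 genes, so their share in this fit is a description too, and limma on the second set by itself called 0 genes (0%), with 606 at an unadjusted p below 0.05 (4.07%), 1 of them among the 155.

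In the fit with the block, DUSP4, a phosphatase that switches off MAP kinases, rose most among the 155. It was at 7.71 in DMSO 3 and 10.04 in FRAX-597 1, and at 6.39 in DMSO 4 and 8.45 in FRAX-597 2, a log2 change of 2.19 with a standard error of 0.16 (limma adjusted p = 0.0024). ULBP1 was at 6.40 and 8.33 in the first pair and 5.16 and 6.65 in the second, a change of 1.71 ± 0.18 (SE, limma adjusted p = 0.0074). CCL2 rose by 1.28, C3AR1 by 1.20, TREM1 by 1.18, LY96 by 1.09, FBXO39 by 1.06 and UST by 0.58. MNDA fell by 0.82, GPR18 by 0.74, HSD11B1 by 0.73, CCR1 by 0.58 and SCARNA9L by 0.52, with limma adjusted p-values of 0.0066 to 0.050 over these 11 genes. Both pairs thus changed in these genes from different starting levels. No gene of the interferon list was called for FRAX-597 in the fit without or with the block. Over all genes these fits called 0.155% and 1.36%. A list of 31 measured genes could hold few calls at such shares, so nothing is read from their absence.

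IPA-3 was compared with DMSO 1 and DMSO 2, arrays that the rule did not use. The fit of all 8 arrays called 5 genes (0.0336%), 4 higher (0.0269%) and 1 lower (0.00672%). None was among the 155, of which 3 (1.94%) had an unadjusted p below 0.05, against 7.21% of all genes. Here too the spread was pooled with the second set, where the 155 were chosen for their differences, so nothing is read from these low counts. In a limma fit of the first set by itself, 96 genes were called (0.645%), of which 0.517% of all genes were higher and 0.128% lower. Of the 155, 15 were called (9.68%), 12 higher and 3 lower after IPA-3. At an unadjusted p below 0.05 there were 78 of the 155 (50.3%), against 15.1% of all genes. Only 6 of the 117 and 1 of the 38 had a second-set mean under the probe median, whereas all genes were taken at any level. Shares at a like level were not computed, so those given may not be of like genes. With the pair as a block, 72 genes were called (0.484%), 0.37% higher and 0.114% lower, with 14.1% of all genes at an unadjusted p below 0.05. Of the 155, 9 were called in that fit (5.81%), 6 higher and 3 lower after IPA-3. Those with an unadjusted limma p below 0.05 were 73 of the 155 (47.1%). The block came from the values that chose the 155, so these shares are descriptions. Leaving out DMSO 1, DMSO 2, IPA-3 1 or IPA-3 2 from the limma fit of all arrays left 0 calls, with 491 to 1146 genes at an unadjusted p below 0.05.

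HMOX1, the haem-degrading enzyme, had the largest change of the 155 in the fit of the first set by itself, whose calls are named after their values were seen. It was at 9.18 and 9.19 in DMSO 1 and DMSO 2 and at 10.93 and 10.84 in the IPA-3 arrays, a change of 1.71 ± 0.09 (SE, limma adjusted p = 0.012). ULBP1 rose by 1.62, ENPP2 by 1.61, ICAM1 by 1.42, DUSP4 by 1.36, PLPP1 by 1.20 and TREM1 by 1.16, with limma adjusted p-values of 0.018 to 0.047. C3AR1, MAML2, CD44, ANKRD28 and NRP2 rose by 0.76 to 0.97. GPR18 fell by 1.09, IFI44L by 0.99 and STAP1 by 0.76. IFI44L was at 7.77 and 7.82 under DMSO and 6.83 and 6.78 under IPA-3, and was the 1 gene of the interferon list called in that fit. That list had a median change of -0.36 after IPA-3. DUSP4, ULBP1, TREM1, C3AR1 and GPR18 were called in the same direction for FRAX-597 with the block and for IPA-3 in this fit. The contrasts have different control arrays, though the fit with the block pools their spread.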

How the data were processed

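The deposited table holds log2 expression values that the authors made from 8 arrays, per the labels. Per the submitters' processing notes, the tools were Transcriptome Analysis Console and Affymetrix Expression Console. The normalization, the arrays normalized together and the genome build are not given in the sources used here. Of 53617 probes, 16098 had exactly 1 gene symbol, and 37519 had none here. Of 14884 genes, 779 had more than 1 probe, and each such gene is represented by its brightest probe, by the mean of all 8 values. Values were used as deposited. No filter on low values was applied, so all 155 genes that differ alike entered every test.

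The members and gene lists were chosen with earlier results of these data known. Genes were named by a rule: per direction the 15 protein-coding genes with the largest smaller difference (higher side at or above the probe median), up to 4 members per list, the 3 neighbours of the threshold on each side, members called for an inhibitor in the fits of all arrays, genes with opposite signs, and MYC and PAK genes where measured. PAK1, PAK3 and PAK6 were not analysed here. Other members are named for their role and were chosen after their values were seen, as were the chromosome windows.

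Inhibitor responses were fitted with limma 3.58.1 in R 4.3.3 on 4 groups (DMSO 1 and 2, IPA-3, DMSO 3 and 4, FRAX-597) with Benjamini-Hochberg adjustment over all 14884 genes, and the fit was tested on simulated data. Arrays have no read depth: with 2 arrays per group their number limits the precision. Alternatives covered the fold threshold, normalization, probe choice, a filter on low values, a block for the pairs, other control groups and left-out arrays. RefSeq tables of GRCh38.p14 gave names, gene order, promoters and microRNA sequences.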

Additional observations from a re-analysis of the deposited data

Results flagged for a closer look

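Among the 4 DMSO arrays, 1 array lay far from the other 3 in 10 of the 72 named genes. In 7 of them DMSO 3 was the array apart and higher: IFIT1 at 9.39 in DMSO 3, IFIT3 at 9.68, CD44 at 8.64, NOD2 at 8.28, FBXO39 at 7.78, UST at 7.99 and GPR18 at 9.60. The highest of the other 3 arrays was at 6.58 for IFIT1 and at 6.87 for CD44. In 3 genes DMSO 4 was the array apart, lower in CDC42BPA at 5.51 and in PGR at 8.24 and higher in SYNPO2 at 7.94. Chance flags about 1 in 20 groups, but most of these genes were chosen for differing between DMSO 3 and DMSO 4, so that rate does not apply and nothing is read from the number of flags.

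Probes without a gene name were outside the comparisons of genes. Of these 37519 probes, 427 differed alike past 2-fold in both pairs (1.14%), 200 higher in the first pair and 227 higher in the second. In the first set 32 unnamed probes passed 2-fold alike between the DMSO arrays and between the IPA-3 arrays.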

How the results depend on the processing

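The counts of 117 and 38 genes stayed within 1.5 times under quantile normalization of the second set, centring, the mean of all probes and a filter on low values. They moved to 414 and 209 at a fold of 1.5, to 35 and 9 at a fold of 3, to 341 and 267 over every probe, to 177 and 75 with the DMSO pair alone and to 314 and 112 with the FRAX-597 pair alone. The monocyte and macrophage median moved from 0.61 to 0.45 with the DMSO pair alone, and the NF-kB median from 0.64 to 0.30 with the DMSO pair and 1.14 with the FRAX-597 pair. The interferon median stayed between 1.39 and 1.52, and at 1.43 without its chemokines CXCL9, CXCL10 and CXCL11, an alternative chosen after seeing the data. No list median or named gene reversed under the alternatives run. For FRAX-597, 202 genes were called with the pair block, 0 with the own set alone and 5 with pooled controls. Leaving out 1 array at a time gave 5 to 227 genes, with 227 when FRAX-597 2 was left out and 5 and 7 when DMSO 3 and DMSO 4 were. Of the 155 genes that differ alike, 13 were called with the block, and 0 to 4 with an array left out. For IPA-3, 72 genes were called with the block, 96 with the own set alone, 2 after quantile normalization, 2 with the filter, and 0 with pooled controls or with any 1 array left out. Of the 155, 9 were called with the block and 15 with the own set alone. Window counts, varied after seeing the data, moved with 15 genes per window (17 first-pair higher, 18 second-pair higher), with 50 (3 and 5), and under quantile normalization (5 first-pair higher). The causes of these shifts were not tested. With 2 arrays per group and the normalization unstated, precision is limited.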
